A study of Homo sapiens with 4 samples.

Results

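The regions described here are stretches of open chromatin that were listed in all 4 ATAC-seq libraries of a liver cancer line and that lay away from annotated transcription start sites (TSS). ATAC-seq uses a transposase to cut and tag accessible DNA, and a peak is a stretch where tagged fragments pile up. Peaks of the 4 lists that shared a base were merged into 69843 regions. A merged region was a member if it overlapped a peak in every list and if none of its peaks lay within 1000 bp of a TSS by the authors' distance. This gave 18579 members, which are 34.4% of the 53934 distal regions (exact binomial 95% interval 34.0 to 34.9). They are 26.6% of all merged regions and 58.8% of the 31584 regions listed 4 times. Promoter regions, which are all those with a peak within 1000 bp of a TSS, were in every list in 13005 of 15909 cases (81.7%), and over distal and promoter regions together the share was 45.2%. The members were thus chosen by presence of a peak in each list and by distance, and these counts are a description.

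The cells were Huh7, an established human hepatocellular carcinoma line. They expressed a short hairpin RNA against ARID1A (shARID1A) or a control hairpin (shControl). ARID1A binds DNA as a subunit of the BAF type of SWI/SNF, a complex that moves nucleosomes. Both kinds of cells were given 100 nM rapamycin, which inhibits the growth-regulating kinase complex mTORC1, for 6 h, or DMSO, the solvent. The 4 groups are shARID1A rapamycin, shARID1A DMSO, shControl rapamycin and shControl DMSO, with 1 library each from 50000 cells. The labels do not say how many hairpins or clones were used, and the files hold no transcript or protein level that would check the knockdown. With 1 library per group nothing was tested, and every difference below describes these libraries only.

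The lists held 44760 peaks for shARID1A rapamycin, 45700 for shARID1A DMSO, 49783 for shControl rapamycin and 52192 for shControl DMSO. Read depth was unknown. One list stands apart: the peak numbers of shARID1A DMSO skip 6666 values (12.7% of the numbering), while those of shControl rapamycin skip 1093 (2.15%) and the other lists skip none. Of the 2139 distal regions that were in every list but shARID1A DMSO, 1239 (57.9%) lay between peaks where a number was skipped. If all of these had been listed, there would be 19818 members. For shControl rapamycin 70 of 1291 such regions (5.42%) lay at a skipped number. The regions that lacked a peak in shARID1A rapamycin numbered 2593 and those that lacked one in shControl DMSO 1149, with no skipped number at any of them.

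Open chromatin outside promoters marks, as general background, enhancers, insulators bound by CTCF, and promoters that an annotation assigns to another transcript. Enhancers are stretches of DNA at which transcription factors bind and from which they act on promoters that may be far away. In liver cells such sites are typically bound by factors of the HNF1, HNF4, FOXA and CEBP families, and the nearest gene is often but not always the regulated one. Openness by itself does not tell these classes apart, and no histone mark or factor binding was analysed here.

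The distance that defined the members refers to 1 annotation. Some members hold a promoter by RefSeq or by the authors' own label of the peak. Of 17794 members on chromosomes covered by the RefSeq promoter table, 796 (4.47%) overlapped a RefSeq promoter window, which runs from 250 bases before a gene's start to 50 after it. In distal regions of 3, 2 and 1 lists the share was lower, at 1.93%, 1.56% and 1.15%. Members were also wider than those regions, as given below, and this difference was not tested. The windows in members belonged to 428 protein-coding genes and 382 long non-coding RNA genes. Among these members was the promoter of ARID1A, the gene targeted by the hairpin. The nearest TSS in the authors' annotation was that of AL512408.1 at -1521 bp, although they annotated the peak itself as promoter of ARID1A. The promoter of NR5A2, a nuclear receptor of liver and pancreas, was likewise nearest to another gene, RNU6-570P, at -11522 bp. That of SERPINA1, which encodes the plasma protease inhibitor alpha-1-antitrypsin, was 2080 bp from the TSS that the authors used for SERPINA1 itself. These members, too, were annotated by the authors as promoter of NR5A2 and of SERPINA1. The stretches of 250 bases before the RefSeq start are shown for these 3 genes and for RABGEF1, whose window lies in the strongest member that wholly holds a window of a protein-coding gene, because they are the known sequence inside members. Sequences are from RefSeq on GRCh38.p14 and run 5′ to 3′ on the strand of the gene. The positions are chr1:26695765-26696014 on the plus strand for ARID1A, chr1:200042341-200042590 on the plus strand for NR5A2, chr14:94388603-94388852 on the minus strand for SERPINA1 and chr7:66681916-66682165 on the plus strand for RABGEF1. Capitals mark the letters GGGCGG (the GC box), TGTTTAC (the core of FOXA sites) and GTTAAT (a partial site of HNF1), or the same motifs on the other strand.
ARID1A: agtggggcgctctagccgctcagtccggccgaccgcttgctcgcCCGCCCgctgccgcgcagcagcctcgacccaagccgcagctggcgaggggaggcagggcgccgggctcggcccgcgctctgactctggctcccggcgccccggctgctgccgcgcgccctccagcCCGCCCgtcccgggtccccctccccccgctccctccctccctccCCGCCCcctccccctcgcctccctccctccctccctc
NR5A2: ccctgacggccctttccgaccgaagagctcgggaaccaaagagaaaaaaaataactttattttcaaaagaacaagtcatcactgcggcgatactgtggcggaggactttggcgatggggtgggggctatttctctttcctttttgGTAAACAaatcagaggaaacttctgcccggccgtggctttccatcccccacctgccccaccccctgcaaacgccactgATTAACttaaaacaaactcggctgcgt
SERPINA1: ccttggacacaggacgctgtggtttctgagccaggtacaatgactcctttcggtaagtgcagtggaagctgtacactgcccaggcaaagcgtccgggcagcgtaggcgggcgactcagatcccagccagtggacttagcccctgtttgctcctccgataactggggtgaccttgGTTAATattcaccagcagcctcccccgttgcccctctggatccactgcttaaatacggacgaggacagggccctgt
RABGEF1: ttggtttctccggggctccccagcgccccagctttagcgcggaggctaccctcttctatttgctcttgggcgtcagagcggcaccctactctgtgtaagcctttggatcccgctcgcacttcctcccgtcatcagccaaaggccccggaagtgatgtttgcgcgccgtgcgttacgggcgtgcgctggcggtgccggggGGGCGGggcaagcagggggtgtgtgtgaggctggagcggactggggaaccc

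The ARID1A stretch lay in its member with all 250 bases. It held 3 GC boxes, had a G+C content of 80.4%, and had no FOXA or HNF1 letters. In NR5A2 there was 1 FOXA match and 1 HNF1 match at a G+C content of 50.8%, and in SERPINA1 1 HNF1 match at 58.0%. RABGEF1 had 1 GC box. None of the 4 held TGANTCA, the letters of AP-1 sites. Over full windows of 300 bases, the 926 windows that overlapped members had a median G+C content of 61.3%, between the 66.3% of 14856 windows in promoter regions of every list and the 49.3% of 17753 windows in no listed region. GC boxes were in 49.4% of the windows in members, 72.4% of those in promoter regions, 21.7% of those in no region and 45.0% of all 35116. FOXA letters were in 5.08% of the windows in members, 2.40% in promoter regions, 4.13% in no region and 3.42% of all. AP-1 letters were in 11.1% of the windows in members, 4.13% in promoter regions, 10.3% in no region and 7.71% of all. HNF1 letters were in 6.80% of the windows in members, 3.26% in promoter regions, 9.86% in no region and 6.88% of all. Both strands were searched, the motifs can overlap, and a match is a run of letters and not a bound site.

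Members were wide regions in introns and between genes. Introns held 9384 of them (50.5%), intergenic DNA 7669 (41.3%), exons 705 (3.79%) and the ends of genes 566 (3.05%), while 255 (1.37%) were annotated as promoter by the authors despite their distance. Distal regions of 1 list had 53.2% in introns and 38.6% between genes. The median distance to the nearest TSS was 15929 bp in members, with quartiles at 6818 and 36078 bp. It was 18267, 18577 and 19080 bp in distal regions of 3, 2 and 1 lists. Within 10 kb of a TSS lay 35.5% of the members, against 31.7%, 31.3% and 29.97% of those regions. Beyond 100 kb lay 1014 members (5.46%), against 7.03%, 7.18% and 7.57%. The shift towards genes was thus a matter of a few kilobases, and members were found at every distance.

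**Figure D1:**
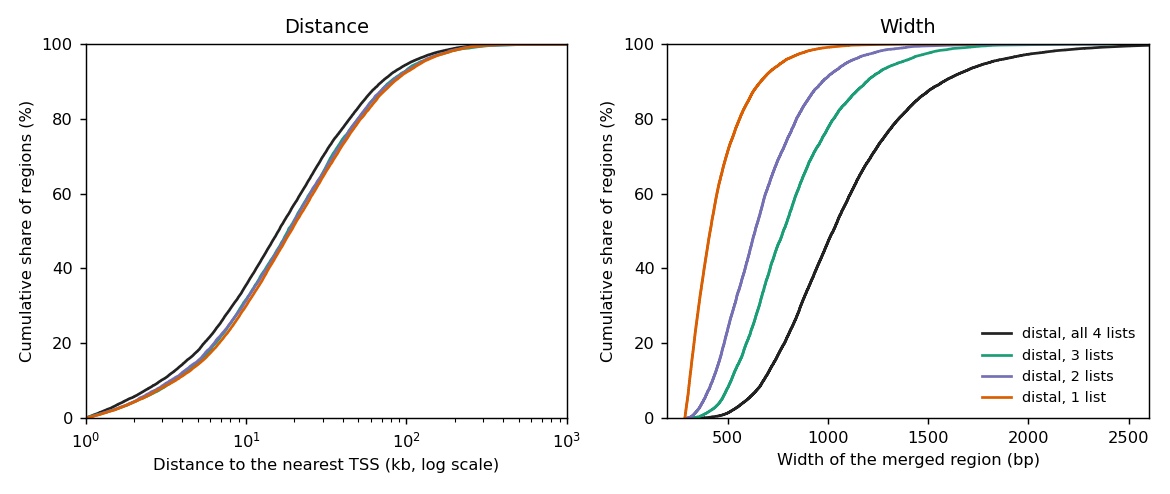
Cumulative share of regions (percent) by distance to the nearest TSS (kb, log scale, left) and by width of the merged region (bp, right), for members (black) and for distal regions of 3, 2 and 1 lists. The distance curves lie close together, with medians of 15929 bp for members and 19080 bp for regions of 1 list, while the width curves are apart, with medians of 1026 and 413 bp, an order that merging more lists partly builds in.

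The merged width had a median of 1026 bp in members, 778, 637 and 413 bp in distal regions of 3, 2 and 1 lists, and 1251 bp in promoter regions of every list. Merging peaks of more lists widens a region, and this order is partly built in. Taken list by list, with the peaks of a list in a region summed, the peaks in members had median widths of 719 bp in shARID1A rapamycin, 794 bp in shARID1A DMSO, 799 bp in shControl rapamycin and 766 bp in shControl DMSO. In distal regions of 3 lists they were 479 and 532 bp in shARID1A (rapamycin, DMSO) and 563 and 535 bp in shControl (rapamycin, DMSO). In distal regions of 1 list they were 395 and 411 bp in shARID1A and 434.5 and 410 bp in shControl. The peaks in members covered 14.6 Mb of the genome in shARID1A rapamycin, 15.9 Mb in shARID1A DMSO, 15.9 Mb in shControl rapamycin and 15.3 Mb in shControl DMSO. The widest member spanned 3956 bp on chromosome 11 (16603863 to 16607819) near RN7SL188P. Next were 3826 bp in intron 1 of RNF220, which encodes a ubiquitin ligase, 3729 bp in intron 1 of SPTBN1, a spectrin gene, 3436 bp upstream of RTN4RL2, a Nogo receptor family gene, and 3426 bp at the end of ENO1, which encodes the glycolytic enzyme enolase 1.

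The rule required peaks of every list to join into 1 region, so overlap within a member is given as a description only. In 17986 members (96.8%) every list had exactly 1 peak, and 18395 members had a base covered in all 4 lists. The stretch common to all lists had a median of 518 bp, or 54.4% of the member. The 4 peak centres of a member spanned a median of 170 bp, and in 90% of members at most 386 bp. Members were spread over the genome, with shares of the distal regions between 31.9% on chromosome 14 and 38.1% on chromosome 19 among the autosomes. On the X chromosome the share was 32.5%, and on the Y chromosome 3 of 15 distal regions were members.

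At the edge of the rule, the members nearest to a TSS lay at -1003 bp from MIR4695, in intron 5 of ALDH4A1, and at 1005 bp from the non-coding gene AC003043.2. The regions of every list just within the limit lay at 999 bp from AC092957.1 and at -998 bp from RNA5SP146. The RNA5SP146 region had within-list rank percentiles of 11.5 and 6.95 in the shARID1A lists (rapamycin, DMSO) and 13.9 and 8.47 in the shControl lists (rapamycin, DMSO). The MIR4695 member had 75.9 and 68.9 in the shARID1A lists and 69.8 and 87.1 in the shControl lists. A rank percentile is the rank of a peak by the authors' score divided by the length of its list, so that a low value is a strong peak.

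By this measure members were middling peaks, not the strongest. Their median rank percentile was 47.7 in shARID1A rapamycin, 46.9 in shARID1A DMSO, 41.4 in shControl rapamycin and 39.5 in shControl DMSO. These ranks belong to lists of different lengths and are not compared with each other. Promoter regions of every list had medians between 17.1 and 17.6. The stronger 50% of the list held 53.6% and 54.9% of the members in shARID1A (rapamycin, DMSO) and 63.4% and 66.6% in shControl (rapamycin, DMSO). In every list at once, 7306 members (39.3%) were in the stronger 50%, 353 (1.90%) in the top 10%, and 3677 in the weaker 50%. The weakest 10% of at least 1 list held 1399 members, a count that can overlap the others. Presence in all lists thus included regions near the calling limit.

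Among the distal peaks of a list, those in members made up 58.9% in shARID1A rapamycin, 57.6% in shARID1A DMSO, 50.8% in shControl rapamycin and 48.1% in shControl DMSO. The share depended on strength. Among the strongest 10% of the distal peaks it was 78.6% and 79.1% in shARID1A (rapamycin, DMSO) and 84.2% and 84.5% in shControl (rapamycin, DMSO). In the next 10% it was highest, at 88.1% and 89.1% in shARID1A (rapamycin, DMSO) and 89.1% and 87.9% in shControl (rapamycin, DMSO). In the weakest 10% it was 16.9% and 11.2% in shARID1A and 9.72% and 7.77% in shControl. Promoter regions can take in distal peaks that touch them, and such peaks belong to no member.

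**Figure D2:**
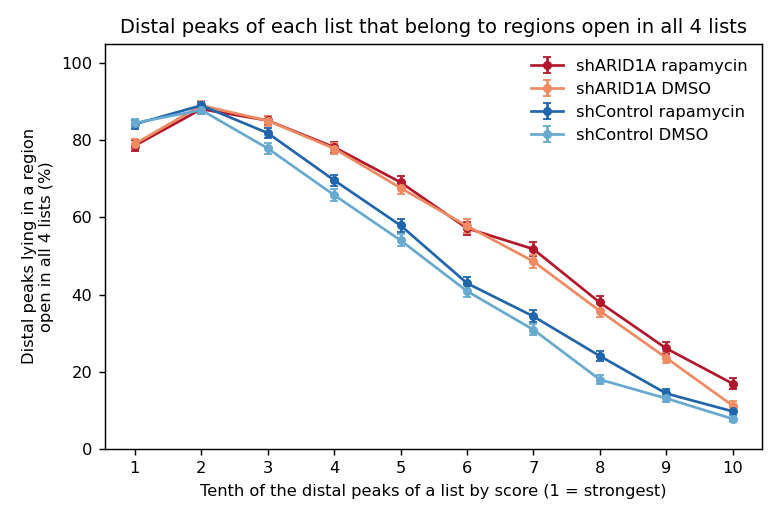
Share of the distal peaks of each list that lay in members (percent, y axis), in 10 equal groups of the distal peaks ordered by score (x axis, 1 is strongest), with exact binomial 95% intervals that cover counting error only. All 4 curves peak in group 2, between 87.9% and 89.1%, and fall to between 7.77% and 16.9% in the weakest.

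The strongest members held RefSeq promoter windows most often. Ordered by mean rank percentile, the strongest 10% of the members on covered chromosomes had a window in 12.6%, the next 10% in 6.80%, and the weakest 10% in 2.42%. The strongest member of all lay on chromosome 3 (93470361 to 93470799), next to the centromere, with RNU6-488P as nearest gene at -373184 bp. It ranked 2nd in shARID1A rapamycin and 1st in the other 3 lists. A pair of members with RNU2-1 on chromosome 17 as nearest gene followed, ranked 1 to 3 in every list. By the authors' distance they lay at -17946 and -12548 bp, but both were annotated as promoter of RF00004, a small RNA name. RNU2-1 encodes the U2 RNA of the spliceosome and is a tandemly repeated gene. Others of the 10 strongest lay near AC005000.1 on the X chromosome, near AC118282.3 and SNX18P25 beside the centromere of chromosome 4, and near FP671120.3 on the short arm of chromosome 21. Reads of repeated DNA cannot be assigned to 1 copy with certainty, and their treatment by the authors is not given, so these ranks are uncertain.

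The other 3 of the 10 strongest were on the long arm of chromosome 11. A member in intron 1 of PACS1, which encodes a trafficking adaptor (66118931 to 66120390), was followed by members near SSH3, a cofilin phosphatase gene (67316840 to 67318448), and near HRASLS2, a phospholipid-metabolising enzyme gene (63567029 to 63568179). The PACS1 member had rank percentiles of 0.0246 and 0.0131 in shARID1A (rapamycin, DMSO) and 0.0121 and 0.00766 in shControl (rapamycin, DMSO). Chromosome 11 held 15 of the 100 strongest members but 834 (4.49%) of all members. Of the 100 strongest, 22 held a RefSeq promoter window.

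The nearest-gene names spread the members thinly. They bore 12604 names, of which 8818 (70.0%) had 1 member and 175 had at least 5. Of these names 8464 matched a RefSeq gene, 7196 members (38.7%) had a protein-coding gene as nearest, 1526 a long non-coding RNA gene, and 6088 a name without a match. The most frequent names were RF00019 with 22 members, RF00012 with 21 and RF00017 with 15. These are families of small RNAs with copies on 10, 6 and 9 chromosomes among the members, so they mark no single place, and the same holds for RF00402 with 10 and RF00322 with 9.

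Names of 1 place were led by LINC00824 on chromosome 8 with 11 members of 20 distal regions, over 260 kb. FILIP1L, which encodes a filamin-interacting protein, had 10 of 14, and the non-coding gene LINC01713 10 of 14. EGFR, the gene of the epidermal growth factor receptor, had 9 of 17 between 11.6 and 60.5 kb from its TSS. Its members had median rank percentiles of 43.0 and 43.3 in shARID1A (rapamycin, DMSO) and 26.4 and 28.9 in shControl (rapamycin, DMSO). TNS3, which encodes a focal adhesion protein, had 9 of 22, DST, a cytoskeletal linker gene, 9 of 19, NRCAM, a cell adhesion gene, 9 of 14, and AL133464.1 9 of 12. NRCAM included strong members, and its best percentile in a list was 0.956 and 1.56 in shARID1A (rapamycin, DMSO) and 1.42 and 0.719 in shControl (rapamycin, DMSO). In AL133464.1 the medians were 27.1 and 25.6 in shARID1A and 15.7 and 16.1 in shControl. These names thus combine strong and weak members. Because the lists differ in length, their percentiles are not compared between groups.

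Most members stood alone. With neighbours joined across gaps of at most 10 kb, 4123 members (22.2%) had a neighbour and formed 1879 clusters, of which 1583 were pairs. Clusters of 3 or more numbered 296 and held 957 members (5.15%). The median gap to the next member was 58216 bp. Clustered members were hardly stronger than the others, with a median mean rank percentile of 42.9 in clusters of 3 or more, 44.6 in pairs and 46.0 for those alone.

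There were 3 clusters of 6 members. The cluster on chromosome 1 (23539568 to 23577913) ran past E2F2, a cell cycle transcription factor gene, ID3, whose product blocks DNA binding by basic helix-loop-helix factors, and MDS2, over 38.3 kb. It was the only one of the 12 clusters of 5 or 6 members with a promoter region inside. Another lay at TRAK1, a gene for mitochondrial transport along microtubules, on chromosome 3 (42013958 to 42046458). Its strongest member had rank percentiles of 22.4 and 23.8 in shARID1A (rapamycin, DMSO) and 10.96 and 13.9 in shControl (rapamycin, DMSO).

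The cluster on chromosome 17 (59828828 to 59856107) surrounded MIR21, a microRNA gene that is abundant in many tumours. The mature product of its 5′ arm is shown with its seed, bases 2 to 8, in capitals, as given by RefSeq at chr17:59841273-59841294 on the plus strand.
hsa-miR-21-5p: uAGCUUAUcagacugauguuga
Of the 6 members, 2 lay upstream in intron 10 of VMP1, an autophagy gene that overlaps the microRNA's primary transcript, and 4 downstream of the hairpin. None of the 6 covered the hairpin, and 2 of the 1562 hairpins known to RefSeq lay in members, MIR12115 and MIR10399. The strongest, at -3222 bp by the authors' distance, had rank percentiles of 17.3 and 14.4 in shARID1A and 10.2 and 12.4 in shControl. The member at 1505 bp had 44.0 and 54.5 in shARID1A and 58.2 and 51.7 in shControl. The outermost upstream member had 38.1 and 21.4 in shARID1A and 27.5 and 20.8 in shControl.

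The 9 clusters of 5 members were at FZD5, a Wnt receptor gene, at PTMA and RN7SL499P, at IRF2BP2, a transcriptional corepressor gene, at FILIP1L, and at names of non-coding genes and pseudogenes. The most compact was at AC010719.1 on chromosome 7 (25849568 to 25862871), 13.3 kb long. It held a very strong member with rank percentiles of 0.987 and 0.370 in shARID1A (rapamycin, DMSO) and 0.396 and 0.370 in shControl (rapamycin, DMSO). In most of these clusters strong and weak members stood side by side, and the PTMA cluster ran from 4.80 to 85.3 in mean rank percentile.

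**Figure D3:**
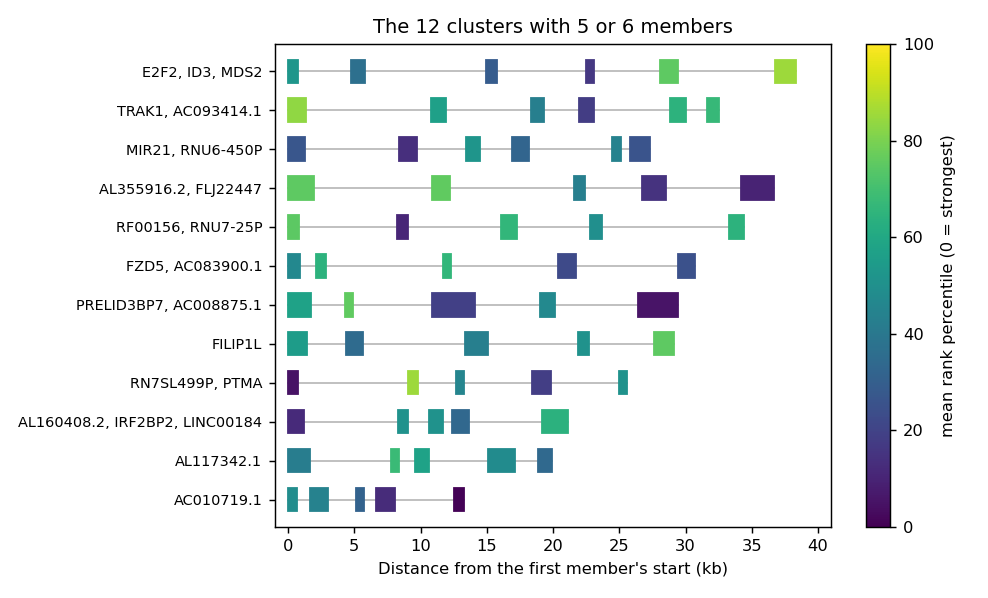
Members (boxes) of the 12 clusters with 5 or 6 members, by distance from the first member's start (kb, x axis), with the nearest-gene names on the y axis and the colour giving the mean rank percentile over the 4 lists (0 is strongest). Dark and light boxes stand side by side in most clusters, as in the PTMA cluster with 4.80 and 85.3.

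Gene groups were compared by the share of their distal regions that were members, beside 34.4% over all distal regions. Regions were first assigned to the nearest gene name. Since many nearest names are small RNAs and pseudogenes, regions in a gene or within 50 kb of it by RefSeq were counted as well. Of 20037 protein-coding genes in RefSeq, 12980 (64.8%) had a member in the gene or within 50 kb. Of the 42379 distal regions that near to a protein-coding gene, 14807 (34.9%) were members. By that assignment the intervals of the hepatocyte transcription factors (37.5 to 53.4), the YAP and TEAD targets (35.5 to 51.0), the AP-1 and immediate early genes (43.2 to 60.2) and the mTOR pathway (37.4 to 59.2) lay above this share. Those of the other lists included it. These intervals cover counting error only, and regions are not replicates. The lists and this assignment were chosen with results of these data known, so enrichment of a list was not tested. By nearest name, the 10 liver and pathway lists together had 42.3% members, and the 4 marker lists of other cell types 32.0%. Within 50 kb these groups overlapped. Shares of the liver and pathway lists then ran from 35.8% (fetal liver, progenitor and biliary) to 51.7% (AP-1 and immediate early). Those of the marker lists ran from 31.9% (leukocyte) to 47.7% (stellate cell and fibroblast).

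Hepatocyte transcription factors had 22 members among 42 distal regions (52.4%, 36.4 to 68.0). Within 50 kb they had 73 of 161 (45.3%), and all 20 genes had at least 1 member, against 64.8% of all protein-coding genes. This was not particular to the list, since 12 of 12 neuron marker genes and 11 of 12 stellate cell and fibroblast marker genes had 1 as well. Within 50 kb, HNF4A, a nuclear receptor that maintains hepatocyte identity, had 5 of 8 distal regions as members. CEBPA, a factor of liver metabolism, had 5 of 6 by the same count. NR1H4, the bile acid receptor FXR, had 5 of 7 nearest regions as members. The strongest of these lay 2201 bp from the TSS, with rank percentiles of 24.1 and 20.7 in shARID1A (rapamycin, DMSO) and 16.0 and 15.8 in shControl (rapamycin, DMSO). ONECUT2, which encodes the factor OC-2, had 3 of 4. PROX1, NR1I2, PPARA, NR0B2 and XBP1 had distal regions but no member as nearest gene. HNF4A, FOXA3, CEBPA, CEBPB and NR1I3 were the nearest gene of no distal region. Each of these genes had 1 or more members within 50 kb.

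Plasma protein genes had 15 members of 32 nearest regions (46.9%) and 38 of 99 within 50 kb (38.4%), with a member at 17 of 24 genes, against 64.8% of all protein-coding genes. The fibrinogen genes FGB, FGA and FGG, which lie side by side on chromosome 4, had 1 of 1, 2 of 2 and 3 of 4. The member 2608 bp upstream of FGB (154559533 to 154561231) was the strongest of these, with 10.6 and 9.04 in shARID1A (rapamycin, DMSO) and 8.93 and 4.36 in shControl (rapamycin, DMSO). ALB, the gene of serum albumin, had 1 of 5, in intron 2, with 66.8 and 54.1 in shARID1A and 66.9 and 55.4 in shControl. APOA1, TTR and HPX had none as nearest gene.

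Genes of hepatocyte metabolism had 21 members of 50 (42.0%) and 47 of 120 within 50 kb (39.2%). ASS1, a urea cycle gene, had 4 of 5, LIPC, the gene of hepatic lipase, 4 of 10, and CPS1, the first enzyme of the urea cycle, 3 of 4. ABCB11, the bile salt exporter, had 1 of 5, with 23.5 and 15.5 in shARID1A (rapamycin, DMSO) and 14.6 and 8.40 in shControl (rapamycin, DMSO). CYP7A1, the rate-limiting enzyme of bile acid synthesis, had 1 of 1. TDO2, CYP2E1 and G6PC had none as nearest gene.

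Fetal liver, progenitor and biliary genes had 18 of 48 (37.5%) and 39 of 109 within 50 kb (35.8%), close to the share over all distal regions. AFP, which encodes the fetal serum protein alpha-fetoprotein, had 2 of 7. The member 3225 bp upstream of AFP (chromosome 4, 73431924 to 73433696) had 17.0 and 12.1 in shARID1A (rapamycin, DMSO) and 5.11 and 8.28 in shControl (rapamycin, DMSO). LIN28B and IGF2BP3 encode RNA-binding proteins of fetal tissue. The stronger LIN28B member had 5.65 and 3.92 in shARID1A and 8.37 and 7.99 in shControl. The stronger IGF2BP3 member had 7.01 and 9.21 in shARID1A and 5.99 and 7.27 in shControl. CD24, a surface protein of progenitor cells, had 4 of 8 and PROM1, the gene of CD133, 3 of 10. DLK1, SPP1, H19 and KRT19 had none as nearest gene.

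Cholesterol and fatty acid genes had 12 of 21 (57.1%), but 36 of 98 within 50 kb (36.7%), near the share over all distal regions. SREBF1, the lipogenic transcription factor gene, had 3 of 3. The member in its intron 1 at -3915 bp had 21.4 and 18.3 in shARID1A (rapamycin, DMSO) and 18.8 and 16.7 in shControl (rapamycin, DMSO). ACLY, the enzyme that supplies cytosolic acetyl-CoA, had 2 of 2. HMGCS1, FASN and INSIG2 had none as nearest gene.

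AP-1 and immediate early genes had 17 of 34 (50%) and 74 of 143 within 50 kb (51.7%), with a median mean rank percentile of 22.01 over the nearest 17 and of 40.1 over the 74, where all members had 45.7. ATF3, a stress response factor, had 2 of 2. The member 6200 bp upstream of its TSS had 6.40 and 4.11 in shARID1A (rapamycin, DMSO) and 5.82 and 5.91 in shControl (rapamycin, DMSO). MAFK, a small MAF factor, had 3 of 4, and IER5, an immediate early response gene, 3 of 4. MAFF, another small MAF factor, had 1 of 1, with 10.0 and 6.40 in shARID1A and 7.89 and 5.95 in shControl. Within 50 kb, DUSP1, a phosphatase that switches off MAP kinases, had 8 of 11 and KLF6 7 of 11. FOS, FOSL2, EGR3 and KLF6 had none as nearest gene.

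YAP and TEAD targets had 19 of 64 nearest regions (29.7%), below the share over all distal regions, and 72 of 167 within 50 kb (43.1%), above it. Which side of that share they lay on thus depended on how regions were assigned. CCN2, listed by the authors under its older name CTGF, had 3 of 4, and ANKRD1 1 of 1. MYOF, a membrane repair gene, had 2 of 6, the stronger with 7.84 and 13.5 in shARID1A (rapamycin, DMSO) and 7.58 and 4.73 in shControl (rapamycin, DMSO). NUAK2, a kinase gene, had 2 of 3 and CRIM1 2 of 8. LATS2, FJX1 and NT5E had none as nearest gene.

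SWI/SNF subunit genes had 9 of 27 (33.3%) and 51 of 140 within 50 kb (36.4%). BCL7A had 3 of 4. The strongest member of any list here lay 7049 bp upstream of SMARCC1, a core subunit gene (chromosome 3, 47788367 to 47789580), with 2.06 and 3.41 in shARID1A (rapamycin, DMSO) and 1.32 and 2.49 in shControl (rapamycin, DMSO). ARID1B, the paralogue of ARID1A, had 1 of 1, with 9.66 and 8.33 in shARID1A and 8.31 and 8.58 in shControl. ARID1A had 0 of 2 nearest regions as members and 3 of 11 within 50 kb. The member at its promoter, nearest to AL512408.1, had 25.9 and 23.3 in shARID1A and 15.6 and 15.8 in shControl, in lists of different lengths. Ranked among the members alone, it stood at 16.3 and 13.4 in shARID1A and at 9.37 and 11.2 in shControl. That is short of the 20 points used below to count a shift.

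The mTOR pathway had 8 of 13 (61.5%, 31.6 to 86.1) and 42 of 87 within 50 kb (48.3%). RICTOR, a subunit of mTORC2, had 3 of 5, SESN2, a stress sensor upstream of mTORC1, 2 of 2, and DDIT4, an inhibitor of mTORC1, 1 of 1. Its member had 29.8 and 29.4 in shARID1A (rapamycin, DMSO) and 23.02 and 28.5 in shControl (rapamycin, DMSO). MTOR itself had 1 of 1. RHEB and TBC1D7 had none as nearest gene. Ribosomal protein genes had 4 of 12 (33.3%) and 48 of 118 within 50 kb (40.7%).

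Markers of other cell types served as a check of the cell line. Leukocyte markers had 2 of 9 (22.2%), endothelial markers 4 of 15 (26.7%), stellate cell and fibroblast markers 2 of 8 (25%) and neuron markers 8 of 18 (44.4%). Within 50 kb the share was 31.9% for leukocyte, 39.0% for endothelial, 47.7% for stellate cell and fibroblast, and 37.2% for neuron markers. PTPRC, CD3D, CD3E, LYZ and SPI1 had no member as nearest gene, nor had CDH5, TIE1, CLDN5, LYVE1 and EMCN, nor COL1A2, PDGFRB and LRAT. MAP2, a microtubule gene of neurons, had 6 of 10. Its strongest member, in intron 1, had 9.31 and 12.035 in shARID1A (rapamycin, DMSO) and 4.15 and 4.84 in shControl (rapamycin, DMSO). By either assignment, the shares of the liver lists and of these lists overlapped.

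**Figure D4:**
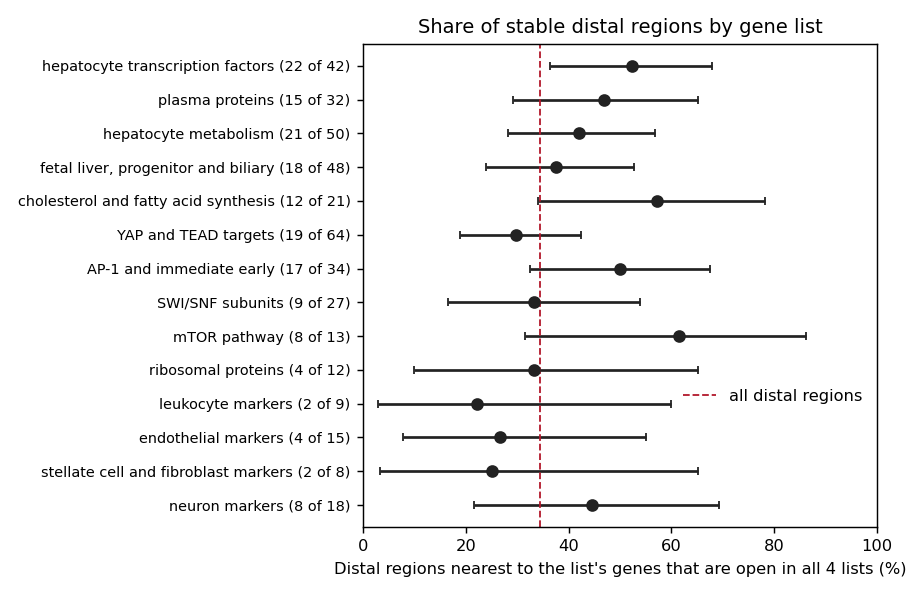
Share of the distal regions nearest to the genes of each list that were members (percent, x axis), with exact binomial 95% intervals that cover counting error only and the counts beside each list's name. The dashed line is the share over all distal regions, 34.4%; the interval of the hepatocyte transcription factors, 36.4 to 68.0, lies above it and those of the other 13 lists reach it by this assignment.

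To compare strength between libraries, members were ranked among themselves in each list, which gives 4 rankings of equal length. Values below are percentiles of these rankings, with low values for strong peaks. The correlation (Pearson's r over 18579 members) was 0.83 between the shARID1A lists and 0.84 between the shControl lists. Between genotypes it was 0.74 in rapamycin and 0.76 in DMSO. Over the 13005 promoter regions of every list it was between 0.94 and 0.96 for all pairs. The points of a correlation are regions of the same libraries, and depth may differ between these. The median absolute difference between the shARID1A and shControl rankings was 12.2 points in rapamycin and 11.5 in DMSO, against 9.37 points between the shARID1A lists and 9.27 between the shControl lists.

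**Figure D5:**
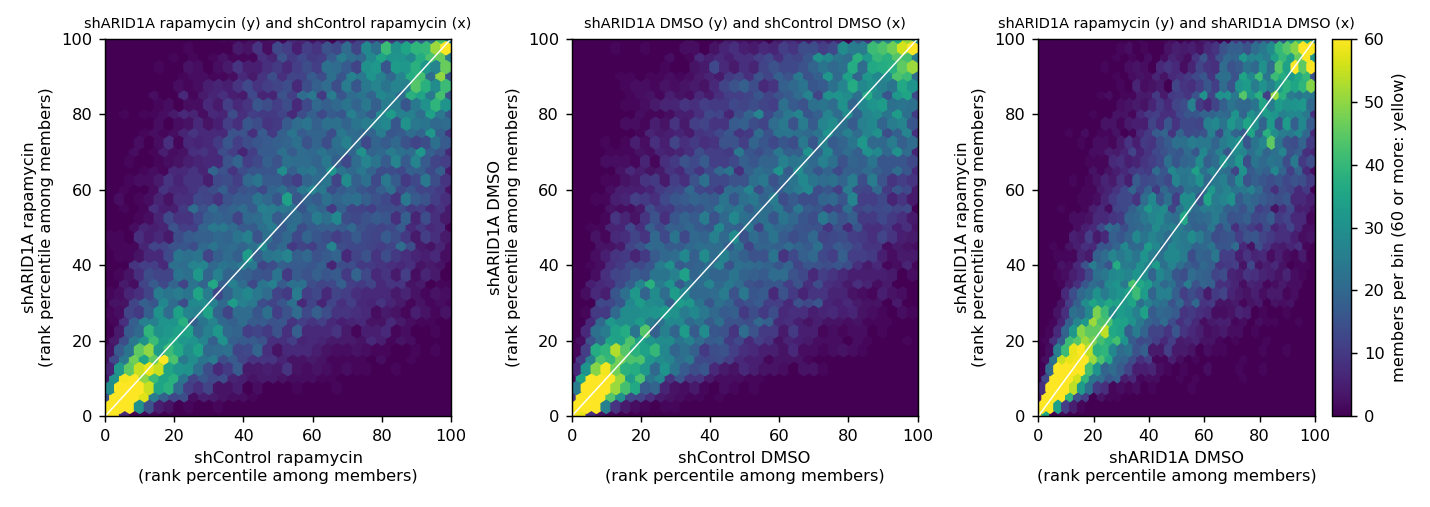
Rank percentile of the members among themselves (0 is strongest), shARID1A against shControl in rapamycin (left) and in DMSO (middle) and rapamycin against DMSO in shARID1A (right), with the colour giving members per bin and the white line equal ranks. Strong members lie near the line in all panels, and the cloud is narrower between treatments (r = 0.83) than between genotypes (r = 0.74 and 0.76).

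The comparison of shARID1A with shControl asks which of these regions are weaker or stronger when ARID1A is targeted. A member was counted as shifted if both shARID1A percentiles lay at least 20 points beyond both shControl percentiles. By this rule 657 members (3.54%) were weaker in both shARID1A lists and 697 (3.75%) were stronger. Promoter regions of every list, ranked among themselves, had 24 (0.185%) and 6 (0.0461%). All regions of every list ranked together had 1.71% and 1.09% shifted. Ranks of members also differed more between the treatments of 1 genotype. The median difference there was 9.37 points in shARID1A and 9.27 in shControl, against 5.04 and 5.77 in promoter regions. A shift of 20 points is thus reached more easily among members, and a difference in response between the classes was not tested. The directions were nearly even among members. Ranks within a fixed set cannot show a general loss or gain of openness.

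The members that were weaker in shARID1A and those that were stronger differed in where they lay. Of the weaker ones 58.4% were in introns and 36.4% between genes, and of the stronger ones 43.8% and 44.2%, where all members had 50.5% and 41.3%. Median width was 1045 bp in the weaker and 882 bp in the stronger ones, and median distance to a TSS 16322 and 12554 bp. RefSeq promoter windows were in 10 of the weaker (1.52%) and 39 of the stronger members (5.60%). Both sets had the same median mean rank percentile within a point, 49.7 and 49.3. The position of the sets was not used to choose them, but with 1 library per group these differences were not tested.

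The largest gap among weaker members was 62.0 points, at a member near AL512638.1 on chromosome 1 (115411481 to 115412482). It stood at 84.1 and 84.5 in shARID1A (rapamycin, DMSO) and at 13.2 and 22.1 in shControl (rapamycin, DMSO). A member in intron 5 of STIM1, the calcium sensor of the endoplasmic reticulum, on chromosome 11 (4060083 to 4061089) stood at 72.3 and 68.3 in shARID1A and at 10.8 and 9.21 in shControl. Next were members in introns of LINC01722, of FAM20C, which encodes a kinase of secreted proteins, and of RAB11FIP4, an endosomal recycling gene, with gaps of 53.9, 53.7 and 52.7 points. Thus 4 of the 5 lay in introns. The wide member at the end of ENO1 had a gap of 35.9 points in the same direction.

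Among stronger members the largest gap was 52.6 points, near AL627313.1 on chromosome 1 (26636504 to 26637206), 58.1 kb before the member at the ARID1A promoter. It stood at 31.1 and 21.7 in shARID1A (rapamycin, DMSO) and at 83.7 and 90.9 in shControl (rapamycin, DMSO). The others were near AC012507.3 on chromosome 2, in intron 3 of LINC02086, in intron 3 of NOVA2, which encodes a neuronal splicing factor, and in intron 14 of PTK7, a receptor of Wnt signalling, with SRF as the nearest gene. The PTK7 member stood at 29.8 and 29.97 in shARID1A and at 79.7 and 95.6 in shControl. The shARID1A and shControl values of these members do not overlap, which the rule requires.

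Of the 161 members nearest to genes of the 14 lists, 5 were weaker (3.11%) and 4 stronger (2.48%) in both shARID1A lists, near the 3.54% and 3.75% of all members. Of 22 members at hepatocyte transcription factors 1 was stronger in shARID1A and 0 weaker. It lay 11171 bp from FOXA1, a pioneer factor of liver and other epithelia, and stood at 34.7 and 41.5 in shARID1A (rapamycin, DMSO) and at 67.3 and 73.3 in shControl (rapamycin, DMSO). Of 17 at AP-1 and immediate early genes 2 were stronger and 0 weaker, at JUNB and JUND. The JUNB member stood at 32.6 and 20.0 in shARID1A and at 80.6 and 61.6 in shControl, and the JUND member at 28.4 and 59.3 in shARID1A and at 81.5 and 84.1 in shControl.

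Weaker members of the lists were single ones at APOB, LIPC, TGFB2, ACTL6A and PECAM1. APOB, the main protein of low-density lipoprotein, had a member at -12239 bp that stood at 88.9 and 96.4 in shARID1A (rapamycin, DMSO) and at 62.9 and 56.1 in shControl (rapamycin, DMSO). The LIPC member on chromosome 15 (58439848 to 58441091) stood at 90.9 and 77.8 in shARID1A and at 46.8 and 23.8 in shControl. The member near ACTL6A, a SWI/SNF subunit gene, stood at 88.6 and 85.1 in shARID1A and at 53.7 and 46.6 in shControl. In intron 2 of PECAM1 the values were 85.9 and 72.5 in shARID1A and 28.1 and 19.5 in shControl. No member of the fetal liver, lipid, mTOR, ribosomal, stellate cell or neuron lists was shifted by this rule.

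The comparison of rapamycin with DMSO was made in each genotype. By at least 20 points, 303 members (1.63%) were weaker with rapamycin than with DMSO in shARID1A and in shControl, and 311 (1.67%) were stronger. Promoter regions of every list, whose ranks differed less between all pairs of lists, had 8 (0.0615%) and 5 (0.0384%). The shares for all regions of every list ranked together were 0.437% and 0.456%. The median percentile of the weaker set was 79.2 in rapamycin and 45.2 in DMSO in shARID1A, and 72.0 in rapamycin and 40.9 in DMSO in shControl. Introns held 51.8% of the weaker and 50.2% of the stronger set, where all members had 50.5%. The median distance to a TSS was 18676 bp in the weaker and 14818 bp in the stronger set, where all members had 15929 bp. RefSeq promoter windows were in 2.64% and 2.57%, where all members had 4.28%. The rule for rapamycin compares single lists and that for ARID1A pairs of lists, so the counts under the 2 rules are not comparable.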

How the data were processed

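Each group had 1 ATAC-seq library from 50000 Huh7 cells, per the labels. BWA, MACS2 2.0 and GRCh38 (hg38) are named in the submitters' processing notes. No source used here gives the aligner and caller settings, the transposase offset, the handling of duplicates or the depth. Each deposited list belongs to 1 library and gives, per the file headers, a score, start and end, annotation, distance to the nearest TSS and gene for each peak. The deposited score is the authors' own value on an unstated scale and was used only to rank peaks within a list. Coordinates are as the authors deposited them, and their lowest start of 10000 fits counting from 0. The deposited start, end and distance (other units, in bp) were used unchanged.

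Peaks were merged where they shared at least 1 bp (Python 3.11.15, pandas 2.3.3, NumPy 2.4.6), which bedtools 2.31.1 matched with 69843 regions. Intervals are exact binomial at 95% (SciPy 1.17.1), cover counting error only, and no test was run. Figures used matplotlib 3.10.9. The merging, ranking and member rule were tested on simulated data. The annotation and nearest gene of a region are those of its peak nearest to a TSS. Named were the leading gene names, clusters, strongest, widest and most shifted members, those at the distance limit, and up to 4 genes with most members, with genes that had none, in each list. Other list genes were named after their values were seen. The plan allowed for a motif scan of distal regions, for which no genome was used here. The members and gene lists were chosen with earlier results of these data known. Alternatives were other overlaps, distances, peak numbers, gaps, assignments and shift limits, and leaving out each library. Some named items are not reported here.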

Additional observations from a re-analysis of the deposited data

Results flagged for a closer look

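The median width of the members' peaks differed between rapamycin and DMSO in opposite directions in the genotypes. Rapamycin minus DMSO was -75 bp in shARID1A, with medians of 719 and 794 bp, and 33 bp in shControl, with medians of 799 and 766 bp. This was not particular to members. In promoter regions of every list the medians were 1058 and 1117 bp in shARID1A (rapamycin, DMSO) and 1086 and 1034 bp in shControl (rapamycin, DMSO). Medians of distal regions of 3, 2 and 1 lists went in the same directions. With 1 library per group this difference was not tested. The shARID1A DMSO list is also the one with 12.7% of its peak numbers skipped, whose part in the difference was not tested.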

How the results depend on the processing

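The number of members was within 1.5 times under all overlap, distance, list length and chromosome alternatives except the stronger 50% of each list, which left 7314. Leaving out each library gave 19921 to 21375 members, 50.2% to 50.9% in introns, 40.5% to 41.1% between genes and median distances of 15993 to 16576 bp. Of these, the share between genes without shARID1A rapamycin (40.5%) and the median distance without shARID1A rapamycin (16317 bp) or without shARID1A DMSO (16576 bp) moved outside the counting interval. So did the following values. Distal limits of 2 and 5 kb gave 42.2% and 43.0% between genes and median distances of 17373 and 21191 bp, which the limit itself raises. The stronger 50% gave 48.2% in introns, 42.0% between genes and 14944 bp. Without members at a RefSeq promoter window, chosen after seeing the data, 51.4% were in introns and the median mean rank percentile was 46.1. The worst of the 4 ranks had a median of 58.1. With gaps of 5 and 20 kb, 8.20% and 40.3% of members were in clusters. At 10 points, 1763 members were weaker and 1808 stronger in shARID1A, and 1352 weaker and 1291 stronger with rapamycin. At 30 points the counts were 219, 204, 55 and 61. Of 56 recomputed list shares 55 were within the interval of the main share. The exception was the YAP and TEAD list within 50 kb of the genes (43.1%), an assignment added after seeing the data. For small lists this count cannot show stability, because their intervals are wide, as with 3.19 to 65.1 for stellate cell and fibroblast markers. Within 50 kb of the genes, that share moved from 25% to 47.7%, and that of the cholesterol and fatty acid genes from 57.1% to 36.7%. Both were counted as within the interval. No paired analysis was possible because the groups share fewer than 2 replicate numbers and the score, whose scale is not given, allows ranks only; matched treatments were compared through those ranks. The motif scan of region centres, which needs a genome sequence, was not run. With 1 library per group and unknown depth, a region absent from a list was not shown to be closed.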
